A study of Rattus norvegicus with 24 samples.

Results

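DNA methylation at CpG islands was compared between 6 estrogen receptor (ER) negative and 15 ER positive mammary carcinomas, the 21 tumors among the 24 tissues of the series. ER status came from the tumor table of the study, and each tumor was matched to it through its tumor ID. The ER negative tumors were IR-3W tumors 1, 2, 3, 4 and 7 and spontaneous tumor 4, so 5 of the 6 ER negative tumors are IR-3W. The ER positive tumors were IR-3W tumors 5 and 6, all 7 IR-7W tumors and the other 6 spontaneous tumors. IR-3W and IR-7W are carcinomas of female Sprague-Dawley rats given 2 Gy of gamma rays to the whole body at 3 and 7 weeks of age, and the spontaneous carcinomas and 3 normal mammary glands are from rats that were not irradiated. All rats ate a corn oil rich diet as adults. Each tissue was hybridized to 1 array, with DNA enriched by a methyl-CpG binding domain protein in Cy5 and unenriched DNA of the same tissue in Cy3.

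ER is a nuclear receptor that turns on its target genes, among them the progesterone receptor (PR) gene, when it binds estrogen. In the mammary gland it marks part of the luminal cells, and carcinomas with and without it differ in growth control, gene expression and response to hormones. A CpG island is a stretch of DNA dense in CpG sites, often at a gene promoter. Most islands are unmethylated in normal tissue, and methylation of a promoter island is usually found with a silent gene. Islands of the inactive X chromosome in female cells are methylated.

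ER status was bound up with other features of the tumors. No IR-7W tumor was ER negative, so ER status could be compared within IR-3W (5 ER negative against 2 ER positive) and within the spontaneous tumors (1 against 6), and across the series ER status and age at irradiation cannot be told apart. PR was negative in 4 of the 6 ER negative and 4 of the 15 ER positive tumors, and necrosis was recorded in 2 and 1 of them. IR-3W tumors 6 and 7, from 1 rat, were ER positive and ER negative, and IR-7W tumors 1 and 2 were also from 1 rat. All 6 ER negative tumors shared a slide with exactly 1 ER positive tumor, which gave 6 within-slide differences. The arrays measure no expression and their probes are not paired with genes here, so the ER labels were not checked against these data.

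The value used throughout is the log2 ratio of Cy5 over Cy3, centered on the autosomal median of the array and called the log2 ratio below. A higher value means more DNA captured as methylated, relative to the rest of the same array. In bulk tissue, more methylated cells and more methylation per cell cannot be told apart. Between 77.8% and 92.8% of the probes of an ER negative array (median 80.0%) had a Cy5 signal well above background, and between 73.0% and 94.0% of an ER positive array (median 85.5%). IR-3W tumor 1, which is ER negative, had the widest range of log2 ratios, and IR-7W tumor 3, which is ER positive, had low values on the X chromosome. Array measures are also given without one or both of them, and the single regions without IR-3W tumor 1.

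In the fit of all 21 tumors, no probe and no island passed the test of a difference by ER status after adjustment for multiple tests. Of 89403 autosomal probes, 0 (0% of those tested) had an adjusted p under 0.05 by limma, with Benjamini-Hochberg adjustment over all of them, and the smallest adjusted p was 0.156. The median standard error of the difference was 0.20 on the log2 scale, which limits what 6 against 15 arrays can show at 1 probe. With slide as a block 1 probe passed (adjusted p = 0.00298, limma, 0.00112% of those tested), and the same probe passed with scan day as a block, with array weights and without IR-3W tumor 7. Outside limma, the methods' t-test, run here on log2 ratios and not on the log odds scores of the study and without its minimum difference, passed 0 probes after adjustment, as did a test with unequal variances. At an unadjusted p under 0.05, 5500 probes passed (6.15%), 1875 of them higher (2.10%) and 3625 lower (4.05%) in ER negative tumors. At an unadjusted p under 0.005, the p threshold that the study used for age at irradiation beside a minimum difference not applied here, 735 probes passed (0.822%), 221 higher (0.247%) and 514 lower (0.575%). The median difference over all probes was 0.01, a value kept small by centering each array on its autosomal median.

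Probes at most 1000 bp apart were joined into 13509 runs, which stand in for CpG islands, and the log2 ratios of a run were averaged. Of these runs 0 passed the adjusted threshold (0%), with a smallest adjusted p of 0.359 (limma). With PR status as a term, with array weights and without IR-3W tumor 7, 1 run passed. Without spontaneous tumor 4, when all ER negative tumors were IR-3W, 2 runs passed. At an unadjusted p under 0.005, 120 runs passed (0.888%), 42 higher (0.311%) and 78 lower (0.577%) in ER negative tumors. The count was 73 without IR-3W tumor 3 and 196 without IR-3W tumor 6, the lowest and highest when single tumors were left out. Of the 735 probes, 733 lay in runs, and in 135 of the 137 runs that held more than 1 of them these probes differed in the same direction. Neighboring probes can read the same DNA fragments, so they are not independent measurements. The 735 probes were 0.428% to 1.22% of the probes of an autosome, and more of them were lower than higher in ER negative tumors on 18 of the 20 autosomes. The exceptions were chromosome 14, with 23 of 36 higher, and chromosome 20, with 13 of 20 higher. On chromosome 14, 7 of the higher probes lay in the run described first below. On chromosome 20, 7 lay in 1 run, chr20:13125973-13126666.

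The balance between higher and lower probes moved with the samples and terms of the fit. With slide as a block 470 probes passed the unadjusted p under 0.005 (0.526%), 214 higher (0.239%) and 256 lower (0.286%), so the share of higher probes went from 30.1% to 45.5%. With PR status as a term it was 60.9%, with 482 higher and 310 lower. Without IR-3W tumor 7 it was 57.1%, and without spontaneous tumor 4 it was 47.8%, since 505 probes were then higher and 552 lower. Without IR-3W tumor 1 it was 18.7%, and without IR-3W tumor 4 it was 15.7%. With normexp background correction the count was 248, of which 51.6% were higher. In the test with unequal variances 102 were higher and 576 lower. The runs at this threshold moved likewise, to 81 higher and 39 lower with PR status as a term, 100 and 43 without IR-3W tumor 7, 110 and 58 without spontaneous tumor 4, 122 and 97 with array weights, 32 and 24 with slide as a block, 21 and 14 with normexp, and 11 and 114 with unequal variances. The direction that most of these probes and runs shared was thus not the same in all of these fits.

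**Figure D1:**
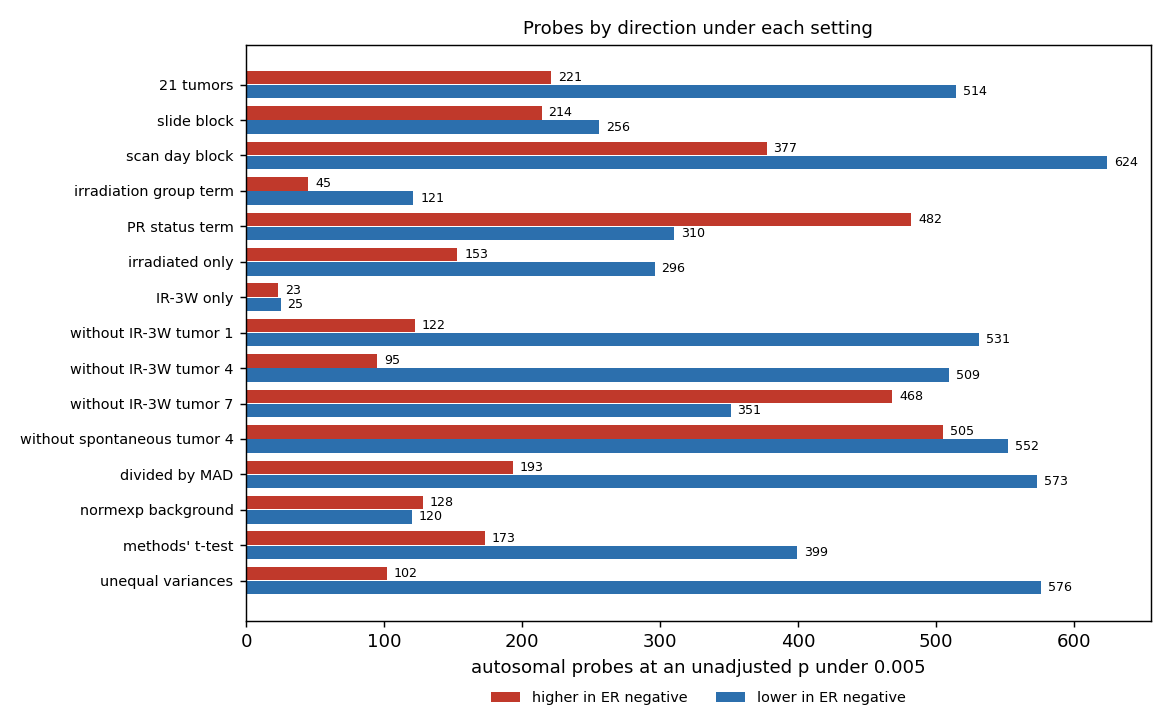
Autosomal probes at an unadjusted limma p under 0.005 between ER negative and ER positive carcinomas (horizontal axis, number of probes), for the fit of all 21 tumors and 14 alternatives (vertical axis, the last 2 with other tests); red bars are probes higher and blue bars probes lower in ER negative tumors. Lower probes outnumbered higher ones for the 21 tumors (514 against 221), and the order turned with PR status as a term (310 against 482).

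Since most ER negative tumors were IR-3W, irradiation group was added as a term. Beside irradiation group, 0 probes passed the adjusted threshold for ER status (0%), with a smallest adjusted p of 0.278 (limma). At an unadjusted p under 0.005, 166 probes (0.186%) and 8 runs (0.0592%) passed, and at an unadjusted p under 0.05, 2217 probes (2.48%). Within IR-3W, 0 probes passed the adjusted threshold (0%), 48 passed at an unadjusted p under 0.005 (0.0537%) and 892 at an unadjusted p under 0.05 (0.998%). The median standard error was 0.36 in this comparison of 5 against 2 arrays. Spontaneous tumor 4 against the other spontaneous tumors gave 0 probes (0%), with 316 at an unadjusted p under 0.005 (0.353%) and 2844 at an unadjusted p under 0.05 (3.18%), when the lone tumor was assumed to vary like the others. The difference between both ER contrasts, tested as an interaction in the 14 tumors, also passed 0 probes (0%), with 126 at an unadjusted p under 0.005 (0.141%) and 1670 at an unadjusted p under 0.05 (1.87%).

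The ER contrasts within IR-3W and within the spontaneous tumors share no arrays. Across the 13509 runs their differences had a Pearson r of -0.27 and a Spearman rho of -0.25. After each array was divided by its median absolute deviation, r was 0.14 and rho 0.19. The sign of this relation therefore depended on the scaling of the arrays. Runs of 1 array share its spread and are not independent, so these values are a description.

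Single regions are described through 20 runs, the 10 of each direction with the smallest p among 3516 runs of at least 3 probes whose probes all differed in the same direction. All lie on the rn4 assembly and are given by position. None passed the adjusted threshold, and their adjusted p was 0.359 to 0.526 (limma). The choice rests on the ER contrast itself, so their values are a description. The differences were 0.44 to 1.31 on the log2 scale among the higher runs and -0.87 to -0.44 among the lower runs. With normexp background correction the difference was smaller in size at all 20, down to 0.14 among the higher and -0.077 among the lower runs.

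The run with the smallest p was chr14:111147023-111148020, of 8 probes. Its log2 ratio in the ER negative tumors was 1.14, 0.23, 1.25, 1.10 and -0.22 in IR-3W tumors 1, 2, 3, 4 and 7 and -0.14 in spontaneous tumor 4. In the ER positive tumors it ran from -0.83 through a median of -0.49 to -0.05, and in the normal glands it was 0.11, -0.45 and -0.39. IR-3W tumors 1, 2, 3 and 4 thus lay above every ER positive tumor and every gland, while IR-3W tumor 7 and spontaneous tumor 4 lay among the ER positive tumors. The difference of the means was 1.00 (SE 0.19, adjusted p = 0.359, limma), and 7 of the 8 probes passed an unadjusted p under 0.005. The SD was 0.68 in ER negative and 0.24 in ER positive tumors. Within all 6 slides the ER negative tumor was higher, by 0.29 to 1.70. The difference was 0.35 with normexp background correction and 0.62 beside irradiation group, and the mean of ER negative IR-3W tumors was 0.78 above that of ER positive IR-3W tumors. The Cy3 signal of the run differed by 0.0025 on the log2 scale.

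This run passed the adjusted threshold in 3 of 44 alternatives. It did not pass with slide as a block (difference 0.96, adjusted p = 0.813, limma) or beside irradiation group, where 0 runs passed. Its adjusted p was 0.0194 with array weights, 0.0391 without IR-3W tumor 7 and 0.0332 without spontaneous tumor 4 (limma). IR-3W tumor 7 and spontaneous tumor 4 are the ER negative tumors nearest to the ER positive ones. Without spontaneous tumor 4 all ER negative tumors were IR-3W, so ER status overlapped further with irradiation group. The probe that passed with slide as a block was A_45_P09899194 at chr14:111147224-111147272 in this run. Its difference was then 1.63 (SE 0.13, adjusted p = 0.00298, limma), against 1.48 without the block (adjusted p = 0.156), where the mean was 0.77 in ER negative and -0.71 in ER positive tumors. The same probe was the 1 that passed with scan day as a block (adjusted p = 0.000649), with array weights (adjusted p = 0.0440) and without IR-3W tumor 7 (adjusted p = 0.0173), all by limma.

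**Figure D2:**
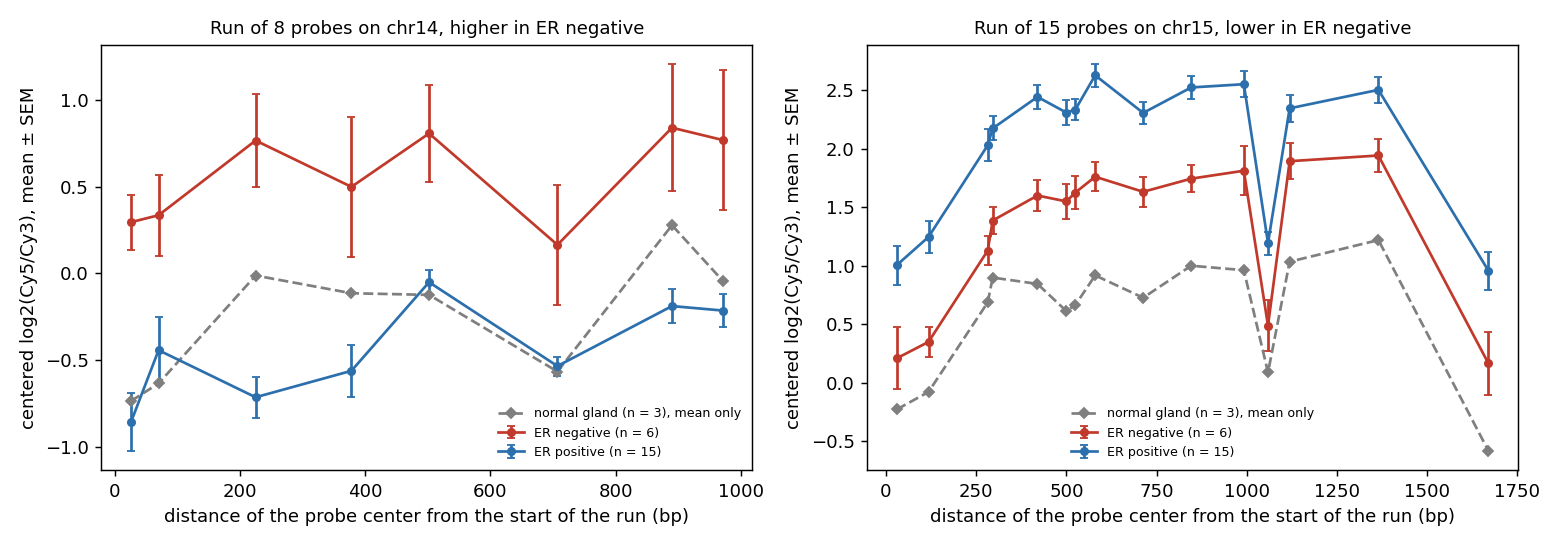
Mean log2 ratio ± SEM of each probe (vertical axis) by distance from the start of the run in bp (horizontal axis), for the run of 8 probes on chromosome 14 (left) and the run of 15 probes on chromosome 15 (right), in ER negative (red), ER positive (blue) and normal gland (grey, mean only) arrays. ER negative means lay above ER positive means at all 8 probes on the left and below them at all 15 on the right, where the glands were lowest.

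The other higher runs were led by the same few tumors. IR-3W tumor 1 lay above every ER positive tumor in 10 of the 10 higher runs, IR-3W tumor 4 in 9, IR-3W tumor 3 in 8 and IR-3W tumor 2 in 5. IR-3W tumor 7 did so in 2 and spontaneous tumor 4 in 0. Without IR-3W tumor 1 the differences at the higher runs were 0.35 to 1.04, at 0.67 to 0.94 times those of all 6 tumors (median 0.79), and kept their direction in 10 of 10. The run on chromosome 14 then differed by 0.89, and the one that moved most, chr7:11283384-11283741, went from 1.04 to 0.70. At chr13:87265258-87265830 (7 probes) the ER negative tumors ran from 0.40 through a median of 1.21 to 2.08 and the ER positive from 0.04 through 0.54 to 0.74. Only spontaneous tumor 4, the lowest, lay within the range of the ER positive tumors at this run. The difference was 0.80 (SE 0.18, adjusted p = 0.452, limma) and 0.27 with normexp. Without spontaneous tumor 4, when all ER negative tumors were IR-3W, it was 0.98 (adjusted p = 0.0332, limma). The Cy5 signal was not well above background on any ER positive array for 2 of these 7 probes and on any ER negative array for 1 of them, and 1 probe also had no Cy3 signal well above background on any array of an ER group. The mean over the other 5 probes differed by 0.81, a value added after the data had been seen. At chr20:13125973-13126666 (7 probes) the difference was 1.02 (SE 0.23), with IR-3W tumors 1, 3 and 4 at 1.87, 1.51 and 2.23 against at most 0.59 in ER positive tumors. IR-3W tumors 2 and 7 and spontaneous tumor 4, at 0.57, 0.15 and 0.18, lay within the ER positive range.

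The largest difference among the 20 runs was at chr10:108308917-108309330 (6 probes), where it was 1.31 (SE 0.31) and 1.04 without IR-3W tumor 1. The ER negative tumors ran from 0.55 to 3.06 and the ER positive from -0.09 to 1.32, with 3 ER negative tumors above all of the latter. The normal glands, at 1.71, 0.79 and 1.25, lay above the ER positive median of 0.26. At chr7:11283384-11283741 (5 probes) and chr16:18536798-18537538 (5 probes) the glands were likewise nearer to the ER negative mean, with means of 1.39 and 1.66 in glands, 1.52 and 1.75 in ER negative and 0.47 and 0.92 in ER positive tumors. The run on chromosome 16 had the smallest p of all runs with slide as a block (difference 0.80, adjusted p = 0.442, limma). Within the 6 slides its differences were between 0.40 and 1.05. At chr17:79985870-79986846 (9 probes) the glands lay below both groups instead, at a mean of -0.95 against -0.24 in ER negative and -0.68 in ER positive tumors, and this run passed the adjusted threshold with PR status as a term (difference 0.57, adjusted p = 0.0206, limma), while with normexp its difference went from 0.44 to 0.14.

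At the higher runs the ER negative tumors differed more among themselves than the ER positive tumors. These runs were chosen on the same values, so the SDs are a description. The ER negative SD was larger in 10 of the 10, by 2.14 to 4.68 times (median 2.77). At the lower runs it was larger in 2 of the 10, and the ratio was 0.41 to 1.23 (median 0.74). Without IR-3W tumor 1 it was larger in the same numbers of runs, with ratios of 1.65 to 4.10 (median 2.94) and 0.39 to 1.30 (median 0.75). Over all 13509 runs the ER negative SD was larger in 78.6% of the runs that were higher in ER negative tumors and in 61.5% of those that were lower. Without IR-3W tumor 1 the shares were 60.7% and 53.4%. The limma SE and p use 1 variance for both groups. At the higher runs the smaller group varied more, so the SE given for them is likely too small. With unequal variances 11 runs were higher at an unadjusted p under 0.005, against 42 by limma. Pairs of ER negative tumors correlated across autosomal probes with r from 0.84 to 0.95 (median 0.85), and pairs of ER positive tumors with r from 0.84 to 0.95 (median 0.90). The ER negative pairs here include those with IR-3W tumor 1.

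The lower run with the smallest p was chr15:47701964-47703658, of 15 probes. Its log2 ratio was 1.05, 1.58, 0.94, 1.20 and 1.35 in IR-3W tumors 1, 2, 3, 4 and 7 and 1.59 in spontaneous tumor 4. In the ER positive tumors it ran from 1.29 through a median of 2.10 to 2.44, and in the glands it was 0.44, 0.36 and 0.95. The groups overlapped through IR-3W tumors 2 and 7 and spontaneous tumor 4, while IR-3W tumors 1, 3 and 4 lay below every ER positive tumor. The difference was -0.75 (SE 0.16, adjusted p = 0.452, limma), and 11 of the 15 probes passed an unadjusted p under 0.005. It was -0.66 beside irradiation group and -0.78 within IR-3W. Within slides 5 of the 6 differences were negative, and the exception was 0.02 in the pair of spontaneous tumors.

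The other lower runs were spread more evenly over the ER negative tumors. Each of the 6 lay below the ER positive median in 10 of the 10 lower runs, and below every ER positive tumor in 5 to 7 of them. Without IR-3W tumor 1 the differences were -0.94 to -0.45, at 0.83 to 1.08 times those of all 6 tumors. At chr10:15363883-15364313 (3 probes) the ER negative tumors ran from -0.68 to 0.16 and the ER positive from -0.07 to 1.03, with a difference of -0.58 (SE 0.13). At chr20:27512883-27513773 (6 probes) they ran from 0.65 to 1.25 and from 1.13 to 1.94, and 5 of the 6 ER negative tumors were below all ER positive ones. The difference there was -0.54 (SE 0.13). At chr1:84235976-84236540 (7 probes) the difference was -0.82 (SE 0.20), with IR-7W tumor 6 highest at 2.84 and IR-3W tumor 7 lowest at 0.50. At chr8:44896438-44897053 (5 probes) the difference was -0.87 (SE 0.23), the largest of the lower runs.

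The remaining 3 higher runs differed by 0.49 to 1.06 and lay at chr13:68210735-68211002, chr3:163797944-163799477 and chr9:105572934-105573172. Those on chromosomes 13 and 9 had 4 probes each and that on chromosome 3 had 16, the most of any of the 20. The remaining 5 lower runs differed by -0.82 to -0.44 and lay at chr18:65866251-65866894, chr16:60563558-60564165, chr8:100501115-100502049, chr12:43483884-43484354 and chr6:143787638-143788414. At the first of them 4 of the 6 ER negative tumors were below all ER positive tumors, and spontaneous tumor 4, at 0.83, was the highest of the 6. At the last, IR-3W tumor 7 was at 0.35 and the other ER negative tumors were between 0.81 and 1.33.

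**Figure D3:**
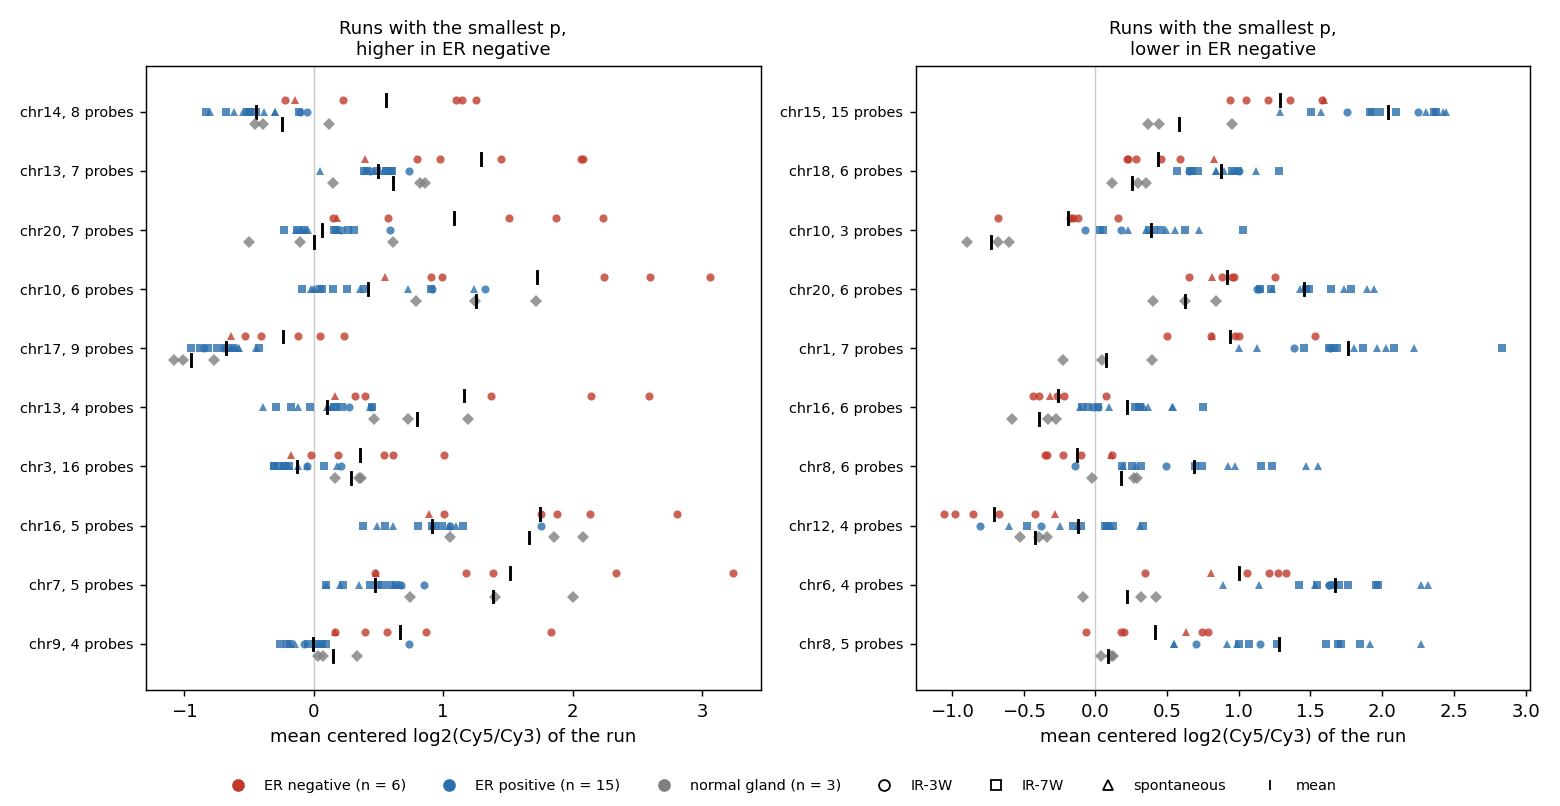
Mean log2 ratio (horizontal axis) of the 20 runs with the smallest p, 10 higher (left) and 10 lower (right) in ER negative tumors, with 1 point for each array and a bar at each mean; rows give chromosome and number of probes, color gives ER status or gland, and shape gives irradiation group. On the left the red points spread widely and some lie within the blue range, and on the right the glands lie below both tumor means in 8 of the 10 runs.

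The normal glands took no part in the choice of the runs. At the lower runs their mean was nearer to the ER negative than to the ER positive mean in 10 of 10, and below both in 8. Among the 78 runs lower at an unadjusted p under 0.005 it was nearer to the ER negative mean in 70 (89.7%), against 54.4% of all 6857 runs with a lower ER negative mean. The median log2 ratio of these 78 runs was 0.24 in glands, 0.60 in ER negative and 1.20 in ER positive tumors. At the higher runs the gland mean was nearer to the ER negative mean in 5 of 10, and among the 42 runs higher at an unadjusted p under 0.005 in 22 (52.4%), against 40.3% of all 6652 with a higher ER negative mean. The number of these runs changed with the fit, as given above. At lower runs of the fit of all 21 tumors, then, ER positive tumors were the ones farther from the glands. All 3 glands were scanned on 1 day and differ from the tumors in tissue, so these shares carry no test.

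No more than 2 runs had groups that did not overlap at all, and 0 of them were higher in ER negative tumors. The 2 lower ones (0.0148% of 13509 runs) were chr10:68997258-68998045 and chr19:9843097-9844432, of 5 probes each, and they are named after their values were seen. At the former the ER negative tumors lay between 0.06 and 0.15 and the ER positive between 0.19 and 0.50 (difference -0.22, SE 0.06). At the latter they lay between 0.36 and 0.54 and between 0.62 and 1.50 (difference -0.46, SE 0.13). Both had an adjusted p of 0.526 (limma). The gland means there were 0.55 and 0.33, above all tumors at the first run and below all at the second.

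Within slides, where both tumors of a pair were hybridized side by side, the ER negative tumor differed in the direction of the group means in all 6 slides at 7 of the 10 higher and 7 of the 10 lower runs, and in 5 slides at the others. The pairs contain the tumors that chose the runs, so these counts are a description. The pairs on slides 6 and 10 were of 1 irradiation group each. In the IR-3W pair of slide 6, tumor 1 against tumor 6, the differences at the higher runs were 0.13 to 2.38. In the spontaneous pair, tumor 4 against tumor 7, they were -0.01 to 0.65. At the lower runs the differences were -1.20 to -0.06 in the IR-3W pair. In the spontaneous pair they were -0.72 to 0.32, with 0.32 at chr12:43483884-43484354, against the direction of the group means. IR-3W tumor 7 and IR-3W tumor 6, the ER negative and ER positive tumor of 1 rat, differed in the direction of the group means at 5 of the 10 higher and 8 of the 10 lower runs.

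**Figure D4:**
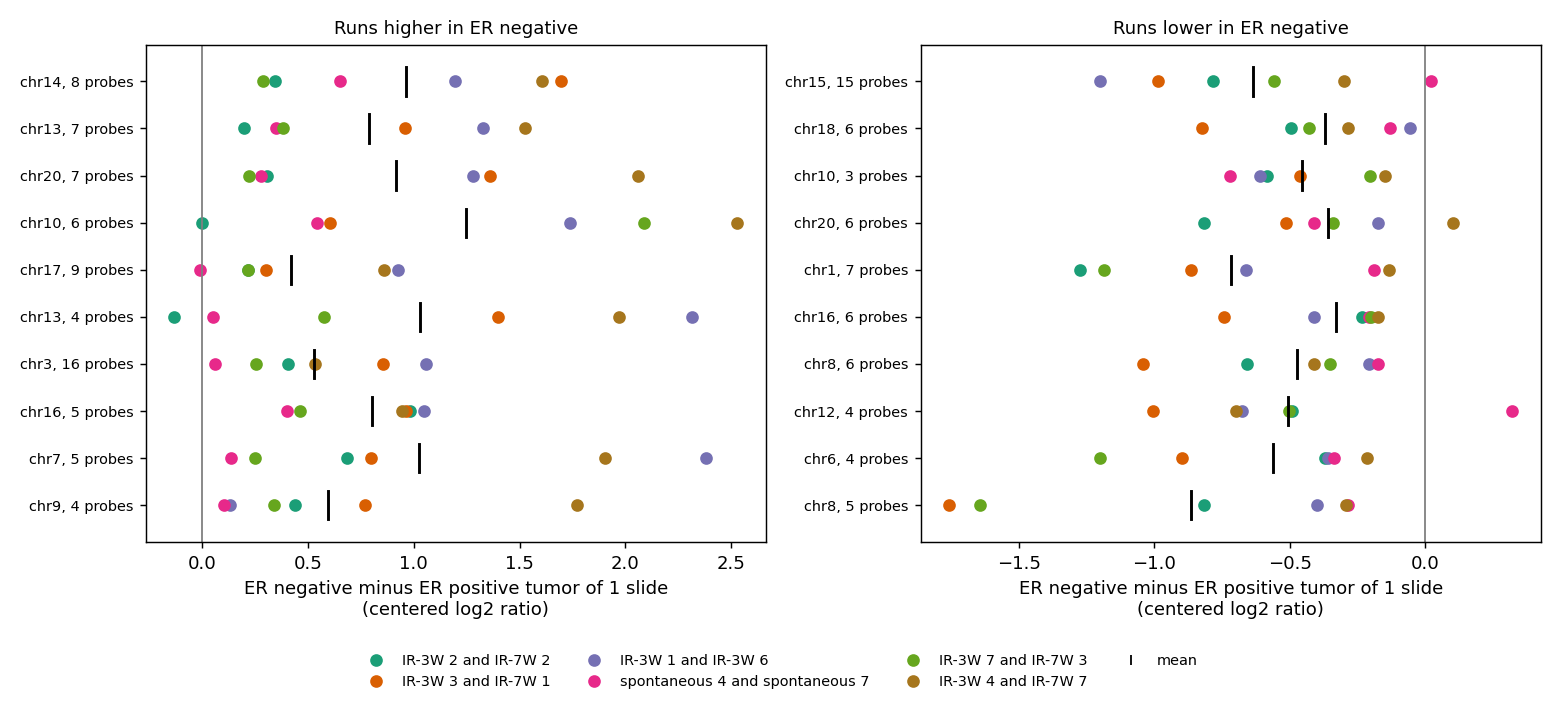
Log2 ratio of the ER negative minus that of the ER positive tumor on the same slide (horizontal axis) for the 10 higher (left) and 10 lower runs (right), with 1 color for each of the 6 pairs and a bar at their mean; rows give chromosome and number of probes. At the higher runs the pair of spontaneous tumors 4 and 7 lies between -0.01 and 0.65, and the pair of IR-3W tumors 1 and 6 between 0.13 and 2.38.

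The ER positive IR-3W tumors show how far irradiation group moved with these values. At the higher runs IR-3W tumor 6 lay above all ER positive tumors of the other groups in 7 of 10, and IR-3W tumor 5 in 3. At the lower runs each lay below all of them in 2 of 10 and below their median in 9. With irradiation group as a term the differences kept their direction in 10 of 10 higher and 10 of 10 lower runs, at a median of 0.60 and 0.75 times the value without the term. Within IR-3W the direction was the same in 10 and 10, with differences of 0.39 to 1.01 at the higher and -0.78 to -0.19 at the lower runs. Among the lower runs chr20:27512883-27513773 went from -0.54 to -0.19, chr12:43483884-43484354 from -0.59 to -0.20 and chr8:100501115-100502049 from -0.82 to -0.35. The runs were chosen for their ER contrast on these arrays, so these counts carry no test. Spontaneous tumor 4 differed from the other spontaneous tumors in that direction in 7 of the 10 higher runs, by -0.06 to 0.35, and in 10 of the 10 lower runs, by -0.88 to -0.11. How much of each difference belongs to ER status and how much to irradiation group cannot be told apart.

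The differences in whole-array measures by ER status were within the spread between tumors. The 95th percentile of autosomal values on an array, which tracks the strongly methylated islands, was 3.76 ± 1.08 (SD, n = 6) in ER negative and 3.45 ± 0.45 (SD, n = 15) in ER positive tumors (two-sided exact permutation test, p = 0.362). IR-3W tumor 1 was highest at 5.82, and without it the difference turned from 0.31 to -0.10 (exact permutation p = 0.681). The median absolute deviation of the log2 ratios was 1.05 ± 0.19 (SD, n = 6) and 0.99 ± 0.08 (SD, n = 15), with exact permutation p = 0.380. The difference of 0.053 was 0.0033 without IR-3W tumor 1 and 0.098 without IR-3W tumor 2. The ER negative tumors lay at both ends of this measure, with IR-3W tumor 2 lowest of all 21 at 0.82 and IR-3W tumors 1 and 4 highest at 1.29 and 1.21.

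On the X chromosome the median log2 ratio of the probes was 3.04 ± 0.99 (SD, n = 6) in ER negative and 2.58 ± 0.77 (SD, n = 15) in ER positive tumors (two-sided exact permutation p = 0.304). IR-3W tumor 1 was highest at 4.96 and IR-7W tumor 3 lowest at 0.22. Without IR-3W tumor 1 the difference went from 0.46 to 0.08. Without both, it was -0.09 (exact permutation p = 0.661), so its sign rested on these tumors. The normal glands had 2.70 ± 0.43 (SD, n = 3).

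Autosomal probes were also placed in 3 equal classes by their mean in the normal glands. In the class least methylated in glands, the mean log2 ratio was -0.65 ± 0.17 (SD, n = 6) in ER negative and -0.59 ± 0.06 (SD, n = 15) in ER positive tumors (exact permutation p = 0.239, adjusted over the 3 classes 0.359). Without IR-3W tumor 2, the highest of the ER negative tumors at -0.40, the difference went from -0.06 to -0.11 (exact permutation p = 0.0150, before adjustment over the classes), and without IR-3W tumor 1 it was -0.016. In the middle class the means were -0.01 ± 0.05 (SD, n = 6) and 0.02 ± 0.05 (SD, n = 15), with exact permutation p = 0.156. In the class most methylated in glands they were 1.78 ± 0.53 (SD, n = 6) and 1.67 ± 0.21 (SD, n = 15), with exact permutation p = 0.533, and without IR-3W tumor 1 the difference turned from 0.10 to -0.10 (exact permutation p = 0.394). Of the probes at an unadjusted p under 0.005, 46 were higher and 186 lower in the least methylated class (0.154% and 0.624% of its probes), 59 and 177 in the middle class (0.198% and 0.594%), and 116 and 150 in the most methylated class (0.389% and 0.503%).

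**Figure D5:**
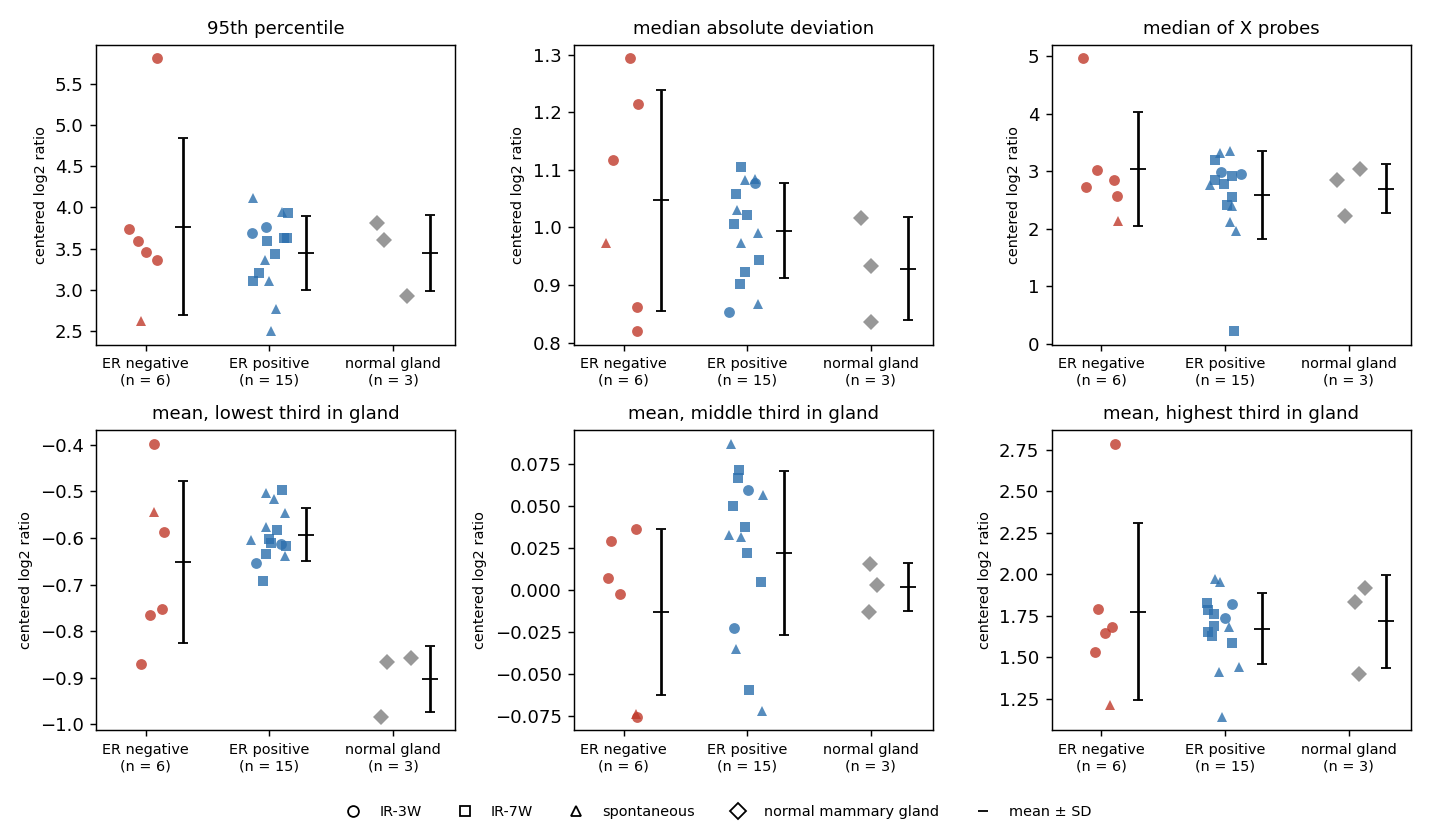
The 6 whole-array measures (vertical axes, log2 units) in ER negative (red), ER positive (blue) and normal gland (grey) arrays, with 1 point for each array, shape for the group and a bar at mean ± SD. ER negative points overlap ER positive points in every panel, and IR-3W tumor 1 is the highest point for the 95th percentile (5.82) and the X chromosome median (4.96).

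The Cy3 channel holds DNA that was not enriched, so it reads DNA content and hybridization without methylation. Of the 89403 autosomal probes 0 differed by ER status in this channel after adjustment (0%), with 10 at an unadjusted p under 0.005 (0.0112%) and 478 at an unadjusted p under 0.05 (0.535%, limma). Both shares are below what these thresholds pass by chance when nothing differs, so this test could miss a difference. No autosome passed the test of its median Cy3 signal, and the smallest exact permutation p was 0.0839, at chromosome 4 (adjusted over 20 autosomes 0.811). On chromosome 4, IR-3W tumors 2 and 3 were at 0.23 and 0.27 on the log2 scale and the other ER negative tumors between -0.02 and 0.00. Spontaneous tumor 5, ER positive, was at 0.16 and normal gland 1 at 0.19, so a raised value was not confined to ER negative tumors. At the 20 runs the Cy3 difference was at most 0.12 in size.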

How the data were processed

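The authors scanned 1 dual-channel array per tissue and deposited spot intensity values from Agilent Feature Extraction 10.7.3.1, with background subtracted, spatial trends removed and a linear dye factor applied. The log10 ratios deposited beside them equalled the ratio of these signals within 0.0001 for 97.9% to 99.6% of the probes on an array. A series matrix of log2 ratios, also deposited, served as an alternative and matched to 0.001 for the same range of shares. Here, log2(Cy5/Cy3) of 93024 non-control probes, without outlier spots (0 to 35 per array), was centered on the median of the 89403 autosomal probes. ER, PR and necrosis came from the tumor table of the study, since the sample labels do not give them. Probes and runs (at most 1000 bp apart, at least 2 probes) were compared in R 4.3.3 by limma 3.58.1, Benjamini-Hochberg adjusted over all probes or runs; 144 probes had a missing spot and were fitted on the other arrays, and 1 could not be tested in the contrasts that rest on spontaneous tumor 4. Whole-array measures were compared by exact permutation over all 54264 choices of 6 of 21. The fitting step was tested on simulated data.

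The rule for named regions was the 10 runs of each direction with the smallest p among runs of at least 3 probes that all differ in 1 direction. The tumors compared, the lists and the rules were chosen with earlier results of these data known. Lists of hormone receptor, luminal, basal and cell type genes could not be applied, because neither gene annotation of the rn4 assembly nor probe sequences were used here. Alternatives were other normalizations, filters, tests, blocks (slide, day of scanning, rat, replicate number), PR and irradiation group as terms, and tumors left out. Tumors of 1 group are separate samples, mostly of separate rats. The number of arrays limits precision.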

Additional observations from a re-analysis of the deposited data

Results flagged for a closer look

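Among the 6 ER negative tumors, the tumor farthest from the others was tested with Dixon's ratio for 46 values, and 6 passed its critical value of 0.625, where chance flags about 1 in 20. IR-3W tumor 1 stood apart by its 95th percentile of 5.82 (others 2.61 to 3.74), its X chromosome median of 4.96 (others 2.13 to 3.02) and its mean of 2.79 in the probe class most methylated in glands (others 1.21 to 1.79). In the Cy3 channel, IR-3W tumor 3 had the lowest median on chromosome 5, at -0.019 (others 0.0051 to 0.0129). IR-3W tumor 4 had the highest on chromosome 10, at 0.117 (others 0.0108 to 0.0321), and IR-3W tumor 7 the highest on chromosome 16, at 0.0801 (others -0.0081 to 0.0173). IR-3W tumor 6, ER positive, was at -0.0239 on chromosome 5, and IR-7W tumor 3, ER positive, at 0.0824 on chromosome 16. On chromosome 10 the highest ER positive tumor was at 0.0496. None of the 20 named runs was among the 6, and 0 probes passed the adjusted threshold for a difference between the ER contrasts of IR-3W and spontaneous tumors.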

How the results depend on the processing

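Against 735 probes at an unadjusted limma p under 0.005, the count was 166 with irradiation group as a term, 470 with slide as a block, 48 in IR-3W only, 449 in irradiated carcinomas only, 1326 with array weights, 248 with normexp, and from 566 to 1057 when single tumors were left out. The 0 probes past the adjusted threshold became 1 with either the slide or the day of scanning as a block and with array weights, and 0 to 1 when single tumors were left out. The 0 runs became 1 with PR status as a term and with array weights, and 0 to 2 when single tumors were left out. Both 0 counts stayed 0 in the other alternatives. The counts beside irradiation group and within IR-3W were 0 also after division by the median absolute deviation and with single tumors left out, that for spontaneous tumor 4 after that division, and that for Cy3 signal with single tumors left out. For these, the one other alternative run was the interaction, also 0. With the replicate block 1063 probes passed the unadjusted threshold, 0 the adjusted one. Deviations of same-numbered tumors correlated with a median of 0.02 (-0.27 to 0.50), as did those of other numbers (0.02), so a shared number did not pair them.

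The difference in the 95th percentile was -0.10 to 0.54 when single tumors were left out, in the X chromosome median 0.08 to 0.64, and in the probe classes set by the glands -0.11 to -0.016, -0.04 to -0.02 and -0.10 to 0.22, from least to most methylated. For the last class it was -0.00016 after division by the median absolute deviation, and the X chromosome difference was -0.094 without IR-3W tumor 1 and IR-7W tumor 3, a choice made after the arrays had been seen. All 20 named runs kept their direction in the 44 alternatives but not their size: with normexp chr14:111147023-111148020 went from 1.00 to 0.35, chr13:87265258-87265830 from 0.80 to 0.27, chr17:79985870-79986846 from 0.44 to 0.14, chr8:100501115-100502049 from -0.82 to -0.26 and chr12:43483884-43484354 from -0.59 to -0.077. The cause of these changes was not tested. Within IR-3W an exact test of 5 against 2 cannot go below p = 0.0476, and 6 slide pairs cannot go below 0.03125.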
